A study of Homo sapiens with 6 samples.

Results

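The 300 intervals described here are MYC-bound regions whose place in the score ranking was higher in cells given fibroblast medium than in cells given serum-free medium. They were taken from the authors' list of 3175 common intervals. How that list was made is not stated in the sources used here, but each of its 3175 intervals overlapped a called peak in each of the 4 immunoprecipitated libraries. The cells were MIAPaCa2, an established human line from a pancreatic ductal adenocarcinoma, and MYC-bound DNA was isolated with an anti-MYC antibody and sequenced. All cells were kept in serum-free DMEM for 48 hours. In the DMEM group they then received fresh serum-free DMEM for 3 hours, and in the CM group serum-free conditioned medium (CM) from primary cancer-associated fibroblasts for 3 hours. Each group has 2 immunoprecipitated libraries, and the 2 inputs, 1 per group, were left out. Whether the libraries of a group came from separate cultures is not stated in the labels, so the spread between them may be technical.

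The transcription factor MYC occupies DNA together with its partner MAX, with a preference for E-box sequences and above all the palindrome CACGTG. It is found at many CpG-rich promoters, among them those of genes for ribosome production, translation, RNA processing and mitochondrial function. Serum starvation lowers growth factor signals, and fibroblast medium is a source of such signals for pancreatic tumour cells. The question addressed was which of the sites held by MYC in both media stood relatively higher among all shared sites after fibroblast medium.

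For every interval, the highest score of an overlapping interval in the authors' CM common list and in their DMEM common list was turned into a percentile from 0 to 100 over the 3175 intervals. The members are the 300 with the largest CM minus DMEM percentile. This difference chose them, so it is a description with no test. It ran from 25.2 to 62.7 percentile points, with a median of 33.1. Just inside the threshold were the intervals at CNOT8 (25.4 points), CFAP410 (25.3), NDUFB9 and TATDN1 (25.3), and an interval inside DPYSL2 (25.2). Just outside it lay those at FKBP5 (25.1), FAM118B and RPUSD4 (25), CFAP57 and EBNA1BP2 (24.9), PRMT2 (24.9) and DNAJC10 (24.9). A percentile is a place in a ranking and not an amount of bound MYC. A higher percentile in CM therefore means a higher place among shared sites. The files do not give read depth, so its part in the rankings was not tested.

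Most members were mid-ranking sites in CM and low-ranking sites in DMEM. Their median percentile was 58.8 in the CM list and 23.1 in the DMEM list. Of the 300, 161 lay under the 25th percentile in DMEM and 65 at or above the 75th percentile in CM, while 4 met both conditions. Of the 161, 90 were also under the 50th percentile in CM. The median score of members was 301 and 266 in CM libraries 1 and 2 and 49 and 87.5 in DMEM libraries 1 and 2. Over all 3175 intervals the corresponding medians were 274, 238, 74 and 135.

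**Figure D1:**
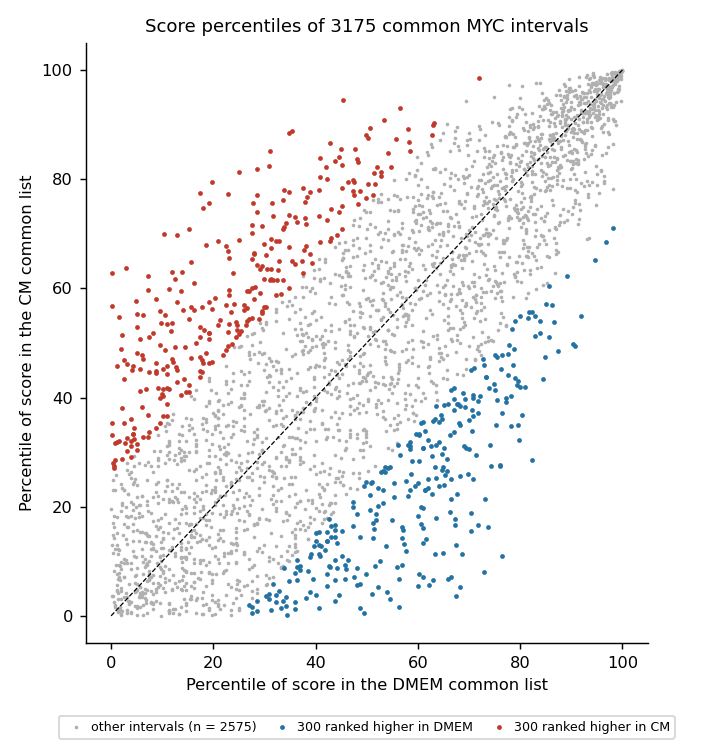
Percentile of the score in the DMEM common list (x axis) against that in the CM common list (y axis), 1 point per common interval; the dashed line marks equal percentiles. The 300 intervals ranked higher in CM lie above the line by 25.2 to 62.7 points, and few of them reach the upper end of the CM axis.

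Promoters of some leading members are printed here as examples, from which no count is drawn. EIF4B, FAM3C, CNDP2 and PLBD1 hold CACGTG, DNAJC11 holds the related CACGCG and NXT1 holds neither. CACGTG is more frequent among these examples than among all promoter windows at members, of which 15.4% hold it. Each runs from 250 bases before to 50 bases after the annotated start, 5′ to 3′ on the strand of the gene, from RefSeq on GRCh38.p14. Capitals mark every CACGTG, and every CACGCG on either strand, where CGCGTG is the reverse complement of CACGCG.
EIF4B: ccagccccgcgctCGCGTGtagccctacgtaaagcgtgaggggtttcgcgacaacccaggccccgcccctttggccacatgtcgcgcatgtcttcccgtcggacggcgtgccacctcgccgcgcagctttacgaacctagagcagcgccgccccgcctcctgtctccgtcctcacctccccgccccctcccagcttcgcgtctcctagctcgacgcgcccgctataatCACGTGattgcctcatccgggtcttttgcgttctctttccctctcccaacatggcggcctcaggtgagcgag
FAM3C: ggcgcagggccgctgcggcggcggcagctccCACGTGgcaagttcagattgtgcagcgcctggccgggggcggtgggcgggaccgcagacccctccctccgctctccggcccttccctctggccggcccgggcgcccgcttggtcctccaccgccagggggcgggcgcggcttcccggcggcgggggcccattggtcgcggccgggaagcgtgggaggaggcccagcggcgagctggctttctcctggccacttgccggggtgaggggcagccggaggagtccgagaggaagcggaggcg
CNDP2: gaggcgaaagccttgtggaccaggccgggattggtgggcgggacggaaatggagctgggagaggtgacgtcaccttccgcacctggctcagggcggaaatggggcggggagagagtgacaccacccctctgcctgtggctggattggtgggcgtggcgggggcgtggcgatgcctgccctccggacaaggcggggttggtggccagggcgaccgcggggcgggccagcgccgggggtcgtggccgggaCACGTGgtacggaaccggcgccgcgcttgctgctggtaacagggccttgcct
PLBD1: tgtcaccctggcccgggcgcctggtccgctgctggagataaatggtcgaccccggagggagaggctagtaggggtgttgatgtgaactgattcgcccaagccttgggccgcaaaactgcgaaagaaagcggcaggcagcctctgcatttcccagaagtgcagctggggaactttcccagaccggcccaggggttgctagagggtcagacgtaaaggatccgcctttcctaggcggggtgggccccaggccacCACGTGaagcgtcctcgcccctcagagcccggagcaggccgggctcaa
DNAJC11: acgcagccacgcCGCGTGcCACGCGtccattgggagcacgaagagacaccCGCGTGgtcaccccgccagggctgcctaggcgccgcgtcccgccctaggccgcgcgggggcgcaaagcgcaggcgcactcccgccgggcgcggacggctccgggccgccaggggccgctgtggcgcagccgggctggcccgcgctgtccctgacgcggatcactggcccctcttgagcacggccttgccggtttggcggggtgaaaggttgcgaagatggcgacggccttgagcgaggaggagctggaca
NXT1: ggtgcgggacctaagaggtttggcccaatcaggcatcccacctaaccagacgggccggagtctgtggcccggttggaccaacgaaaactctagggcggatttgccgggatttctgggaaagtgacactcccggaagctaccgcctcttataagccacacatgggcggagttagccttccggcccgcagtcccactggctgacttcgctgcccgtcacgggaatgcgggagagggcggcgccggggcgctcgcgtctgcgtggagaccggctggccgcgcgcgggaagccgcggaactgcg
They lie at chr12:53006206-53006505 on the plus strand (EIF4B), chr7:121396259-121396558 on the minus strand (FAM3C), chr18:74496113-74496412 on the plus strand (CNDP2), chr12:14567834-14568133 on the minus strand (PLBD1), chr1:6701767-6702066 on the minus strand (DNAJC11) and chr20:23350541-23350840 on the plus strand (NXT1). Counted with the start as base 0, CACGTG begins at base -22 in EIF4B, at -219 in FAM3C, at -2 in CNDP2 and at 2 in PLBD1. The GC content of the 6 windows was 66.0%, 77.3%, 71.0%, 63.7%, 74.3% and 66.0% in the order printed.

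The share of promoters with the E-box was close at members and at all shared sites. Of 428 RefSeq promoter windows that overlap a member, 66 (15.4%, 95% Wilson interval 12.3 to 19.1) held CACGTG on either strand. The share was 16.5% of the 4076 windows at any common interval, 17.4% of 345 windows at the 300 intervals at the other end of the ranking, and 7.26% of all 35116 windows in the table. CACGCG was found in 28% of the members' windows, 26.8% of windows at any common interval and 11.4% of all windows. CATGTG was found in 6.78%, 7.04% and 11.1%. Windows of 1 gene can overlap, so they are not independent.

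For most motifs of other promoter-binding factors the share at all common intervals lay within the members' Wilson interval. The GC box GGGCGG was in 71.0% of members' windows against 73.1% at all common intervals and 45.0% of all windows. CCAAT was in 34.3%, 32.9% and 34.6%, TATAAA in 4.44%, 4.29% and 11.5%, and the cyclic AMP response element TGACGTCA in 3.50%, 3.36% and 1.85%. The ETS core CCGGAAG was in 17.5% of members' windows (interval 14.2 to 21.4), 21.8% at all common intervals and 10.3% of all windows. The NRF1 motif was in 17.3% (14.0 to 21.2), 13.9% and 5.78%. For these motifs the share at all common intervals lay just outside the members' interval, above it for ETS and below it for NRF1. The AP-1 motif TGANTCA, in which N is any base, was in 9 of the members' windows (2.1%, interval 1.11 to 3.95), in 3.63% at all common intervals and in 7.71% of all windows. All motifs were searched on both strands and may overlap one another. The median GC content was 66.3% both at members and at all common intervals, against 58.7% over all windows. No difference between members and other shared sites was tested for any of these motifs.

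The intervals that led the ranking lay, among others, at genes of RNA handling, translation, mitochondria and signalling, and at noncoding genes. This grouping only orders the named genes, and no share over all common intervals was taken for it. In the gene lists below, translation (8.57%), splicing (6.06%) and mitochondrial genes (7.69%) were at members no more often than all coding genes (9.89%). The first of them, on chromosome 15 from 82749749 to 82751340, lies at SNHG21, a long noncoding RNA of the small nucleolar RNA host gene family. Its score was 287 and 297 in CM libraries 1 and 2 and 18 and 21 in DMEM libraries 1 and 2. As percentiles these were 52.8 and 63.8 against 0.7 and 0.4, so a site near the bottom of the DMEM ranking was in the middle of the CM ranking in both libraries. The second, on chromosome 7 from 32941645 to 32943507, lies at RP9P, a transcribed pseudogene. Its percentiles were 56.6 and 63.2 in CM and 0.1 and 12.4 in DMEM.

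Several of the leading genes act in RNA export, RNA binding and translation. NXT1, a partner of the mRNA export receptor NXF1, had scores of 493 and 338 in CM and 39 and 84 in DMEM (chromosome 20, 23349692 to 23351756). Its percentiles were 81.5 and 70.7 against 12.9 and 25.4. SSB, the La protein that binds new RNA polymerase III transcripts, had percentiles of 70.4 and 73.1 in CM and 37.6 and 11.4 in DMEM (chromosome 2, 169798291 to 169799676). In both genes the groups were apart by more than the 2 libraries of either group.

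PAIP1, which binds the poly(A)-binding protein and aids translation, had percentiles of 75.5 and 53.1 in CM and 26 and 27.7 in DMEM. RPS21, a protein of the small ribosomal subunit, stood at 61.2 and 52.5 against 40.1 and 40.3. Its 54.9 points in the common lists exceeded every difference between its single libraries, and the DMEM common score, 46.5, was below the highest peak of either DMEM library (62 and 112). At EIF4B, an initiation factor that assists the helicase eIF4A, the libraries were close to overlapping: 60.1 and 70.7 in CM against 58.2 and 36.2 in DMEM. Its 56.9 points in the common lists also exceeded every difference between its single libraries. The DMEM common score there, 54, is the mean of a pair of peaks at the gene start, and the highest peak of either DMEM library (scores 83 and 104) lies beside that pair. RRP8, a nucleolar enzyme that modifies ribosomal RNA, shares an interval on chromosome 11 (6602891 to 6604592) with ILK, the integrin-linked kinase. Percentiles there were 64.4 and 82.4 in CM and 20.9 and 25.4 in DMEM.

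Mitochondrial and metabolic genes were among the leaders too. TIMM44, an anchor of the protein import motor of the inner mitochondrial membrane, had scores of 476 and 490 in CM and 67 and 129 in DMEM (chromosome 19, 7942711 to 7944978). Its percentiles were 80.0 and 86.0 against 45.8 and 47.8, with close agreement of the 2 libraries in each medium. DNAJC11, a J-domain protein of mitochondria, stood at 64.1 and 83.2 against 40.1 and 24.2. CNDP2, a cytosolic dipeptidase, stood at 87.8 and 85.3 against 15.3 and 42.1. MOCS3 and DPM1, genes of molybdenum cofactor synthesis and of dolichol-linked mannose, share an interval with 59.8 and 45.2 against 19.5 and 3.2.

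Signalling genes among the leaders included a kinase of the JNK pathway and a GTPase of nutrient sensing. MAP2K7, which phosphorylates JNK, had scores of 534 and 376 in CM and 59 and 88 in DMEM, and percentiles of 84.5 and 75.8 against 36.7 and 27.7. RRAGD, a Rag GTPase that brings mTORC1 to the lysosome when amino acids are present, stood at 72.9 and 50 against 4.7 and 29.5. FAM3C, a secreted cytokine-like protein, stood at 76.1 and 83.8 against 9.1 and 38.2. In these 3 genes both DMEM libraries lay well below both CM libraries, with DMEM library 1 the lowest at RRAGD and FAM3C. An interval inside LTBP4, a gene for a binding protein of latent TGF-beta, stood at 86.0 and 88.8 against 7.2 and 46.3. ATR, the kinase of the replication stress checkpoint, stood at 56.9 and 73.4 against 11.4 and 23.9.

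The remaining leaders were ZNF749 and ZFP64, which encode zinc finger proteins, LAPTM4B, a lysosomal membrane protein, PLBD1, SETD5, a protein with a SET domain, the shared start of C5 and CNTRL, and an interval on chromosome 8 that touches no gene start. Over the 25 leading intervals, percentiles ranged from 45.8 to 87.8 and from 30.4 to 88.8 in CM libraries 1 and 2. In DMEM libraries 1 and 2 they ranged from 0.1 to 58.2 and from 0.2 to 58.3. The mean CM minus mean DMEM percentile exceeded the larger of both gaps between libraries of a group in 22 of the 25, against 12.9% of all common intervals. The 25 were picked for a large difference in these libraries, so nothing is read from that count. EIF4B and SETD5 were among the 3 in which it did not.

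**Figure D2:**
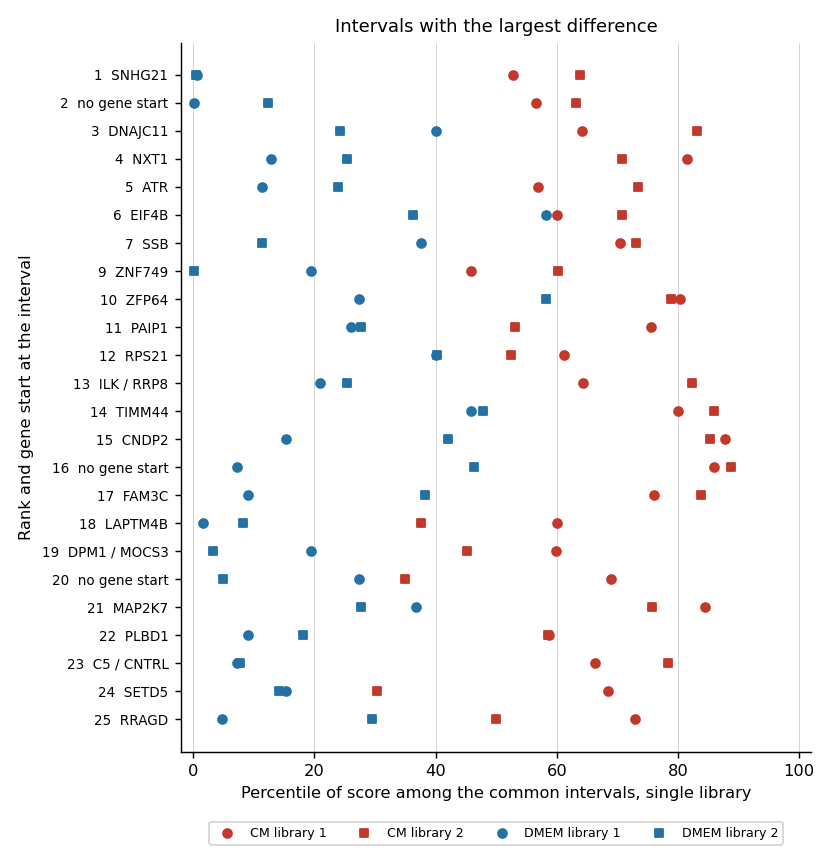
Percentile of the score in each of the 4 libraries (x axis) for 24 of the 25 intervals with the largest difference (y axis, with rank and gene); red stands for CM, blue for DMEM, circles for library 1 and squares for library 2. In all 24 both red points lie to the right of both blue points, by little at EIF4B.

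Across the 300 members, the single libraries mostly kept the order of the common lists. Both CM libraries stood above both DMEM libraries in 240 members (80.0%), against 20.1% of all 3175 common intervals. The opposite order occurred in 0 members, against 19.7% of all. Since the common lists are means of these same libraries, these shares follow in part from the choice and support nothing by themselves. In 46 further members (15.3%) 3 of the 4 pairs of a CM and a DMEM library had CM higher, against 14.0% of all intervals. In 14 members (4.67%) 2 pairs did, against 30.4% of all. The mean CM minus mean DMEM percentile of the single libraries ran from -6.67 to 64.9 points, so it was below 0 in some members. This mean difference was above the spread between libraries of a group in 178 members (59.3%), against 12.9% of all common intervals. Within groups the members' median gap between libraries was 11 points in CM and 16.1 points in DMEM, and over all intervals 9.29 and 14.0. Over all common intervals, Spearman's correlation between the libraries of a group was 0.836 in CM and 0.656 in DMEM, a description across intervals that share their libraries.

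Intervals chosen in 1 pair of libraries kept only a small part of their difference in the other pair. When 300 intervals were chosen by CM library 1 minus DMEM library 1, their median difference was 42.6 points in those libraries and 6.54 points in CM library 2 minus DMEM library 2. In the second pair 188 of the 300 (62.7%) were above 0, against 50.2% of all intervals, whose median was 0.0315. Chosen in libraries 2 and read in libraries 1, the median went from 33.9 to 8.69 points, with 188 above 0 (62.7%, against 49.7% of all). Crossing the libraries gave 3.87 points and 168 above 0 (56.0%, against 49.4%) for the choice in CM 1 and DMEM 2. It gave 5.03 points and 186 above 0 (62.0%, against 49.6%) for the choice in CM 2 and DMEM 1. Each choice shared 127 to 147 intervals with the 300 members.

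**Figure D3:**
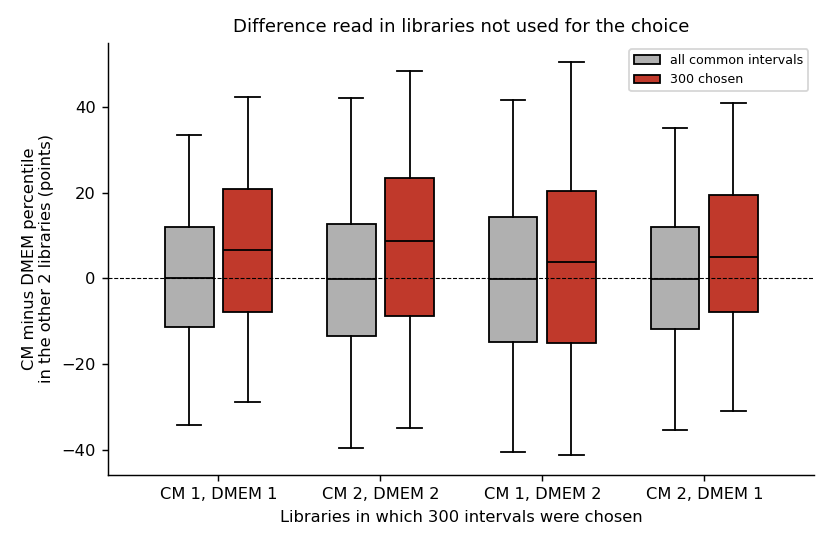
CM minus DMEM percentile (y axis, points) in the 2 libraries that were not used to choose 300 intervals, for each of the 4 choices (x axis); boxes span the quartiles with the median as a line, and whiskers the 5th to 95th percentile. The medians of the chosen intervals lie between 3.87 and 8.69 points, and those of all common intervals near 0.

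The way in which neighbouring peaks were joined moved with the ranking. In both common lists every interval's score equals the mean over all peaks joined in it, within 0.01, so an interval joined from more than 1 peak of a library carries weaker peaks in its mean. The DMEM interval was joined from more than 2 peaks in 81 members (27%, Wilson interval 22.3 to 32.3), against 15.5% of all common intervals. The CM interval was joined from more than 2 peaks in 12 members (4%, 2.3 to 6.86), against 20.6%. At the other end of the ranking the shares were 8.33% for DMEM and 48.3% for CM. In 105 members (35.0%) the DMEM common percentile was lower than in either DMEM library, as it was in 16.2% of all intervals. This also occurred without extra joined peaks. At EIF4B and RPS21 the DMEM interval was joined from 2 peaks, and its score was below the highest peak of either DMEM library. The difference in the common lists was larger than every difference between a CM and a DMEM library in 71 members (23.7%, 19.2 to 28.8), against 8.13% of all intervals. With the mean of each library's highest peak in place of the deposited mean, 226 of the 300 members were chosen again. Of the members, 208 (69.3%) had 1 peak per library in both lists, close to the 67.7% of all common intervals. EIF4B and RPS21 are among these 208, so they too can hold a common score that leaves out the highest peaks.

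**Figure D4:**
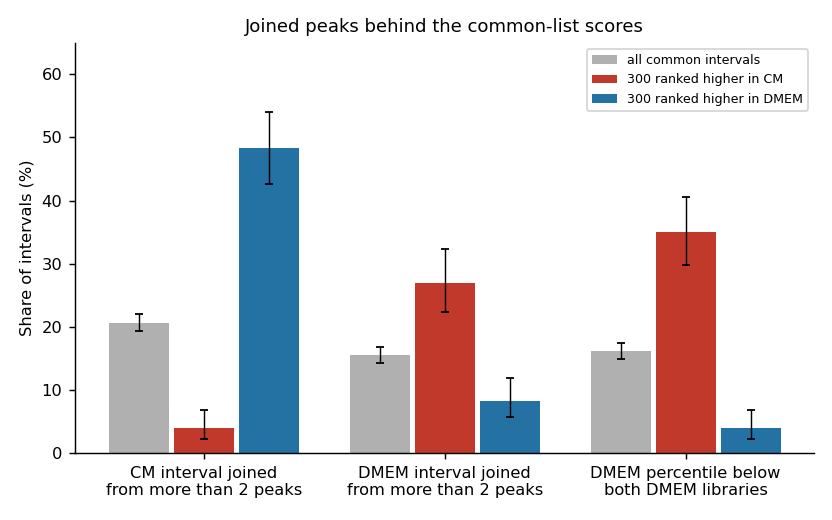
Share of intervals (y axis, %) whose CM interval or DMEM interval was joined from more than 2 peaks, and share whose DMEM percentile was below that of both DMEM libraries, with 95% Wilson intervals that cover counting error only. Members have 4%, 27% and 35.0%, and the 300 intervals at the other end of the ranking 48.3%, 8.33% and 4%.

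Most members lay at gene starts, as did most shared sites. Of the 300, 261 (87.0%, Wilson interval 82.7 to 90.3) were within 1000 bp of the start of a protein-coding gene, or of an outermost end where the start was not used here. The share was 85.1% of all common intervals and 76.7% of the 300 at the other end of the ranking. Another 10 members (3.33%) lay at the start of a long noncoding RNA, 10 (3.33%) inside a coding gene and 19 (6.33%) outside coding genes. Over all common intervals these shares were close, at 3.97%, 4.54% and 6.39%. Of the 19, 8 were at an annotated noncoding gene or pseudogene. The median width of the member intervals was 1855 bp, against 1905 bp for all. In the single libraries the median width of the highest peak was 1813.5 and 1370 bp in CM and 442 and 650 bp in DMEM. Over all common intervals these widths were 1836, 1340, 554 and 748 bp. These widths come from the same libraries as the ranking and are a description.

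The 5 widest members were at ACAP3 and PUSL1 (3424 bp), RPL18 and SPHK2 (3396 bp), RPL36 (3355 bp), BICRAL (3253 bp) and inside TNFRSF1A, the gene of a receptor of tumour necrosis factor (3212 bp). At ACAP3 and PUSL1 the percentiles were 78.0 and 88.0 in CM and 69.2 and 62.0 in DMEM. Members made up from 5.41% of the intervals on chromosome 13 (2 of 37) to 14.1% on chromosome 12 (21 of 149) and 17.8% on chromosome 15 (8 of 45). No difference between chromosomes was tested.

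One group of members lay far from any coding gene. On chromosome 1, from 8181582 to 8213197, all 3 common intervals were members, and the nearest coding gene, SLC45A1, was 104917 to 134974 bp away. The interval from 8210735 to 8213197, at the noncoding gene LINC01714, had scores of 224 and 258 in CM and 27 and 59 in DMEM. Its percentiles were 36.8 and 55.8 against 3.8 and 10.8. Its neighbours stood at 63.2 and 59.0 against 1.7 and 42.4, and at 68.5 and 68.9 against 24 and 44.0. In each of the 3 both CM libraries were above both DMEM libraries. The next gene on the other side of the first of them is ERRFI1, a feedback inhibitor of the EGF receptor, 155273 bp away.

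Of 6 groups of 3 or more members within 1 Mb, 5 lay at gene starts, and the 300 intervals at the other end of the ranking formed 16. On chromosome 16, SGF29, ATXN2L and the shared start of SH2B1 and TUFM held all 3 common intervals of their span, although the groups overlapped at SGF29. TUFM is the mitochondrial translation elongation factor Tu, and its interval stood at 56.3 and 71.3 in CM and 38.9 and 16.0 in DMEM. On chromosome 19, 3 of 6 intervals in a span lay at the zinc finger genes ZNF749, ZNF8 and ZNF837. Another span there held WDR18, RPS15, UQCR11 and KLF16 among 14 intervals. At WDR18 the CM libraries stood at 55.6 and 56.6, DMEM library 1 just above both at 58.2 and DMEM library 2 far below at 0.4, so the groups overlapped. The span on chromosome 5 held VDAC1, SEC24A and TXNDC15, and the second on chromosome 1 held HES4, ACAP3 with PUSL1, ATAD3B and SSU72.

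The members' genes came from many of the 23 lists of pathways and cell type markers, and few per list. Of 3176 protein-coding genes at common intervals, 314 (9.89%) were at members. Of the 420 list genes at common intervals, 36 (8.57%) were at members. For the shares with both CM libraries above both DMEM libraries and for the list medians, each gene was read at 1 interval. This was its common interval with the largest CM minus DMEM percentile, the one most favourable to CM. Both CM libraries stood above both DMEM libraries at 20.8% of all coding genes at common intervals and at 21.2% of list genes there. Values below are percentiles in CM libraries 1 and 2 and then in DMEM libraries 1 and 2.

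Chaperone genes were among the lists with a larger share. Of 20 cytosolic chaperone genes at common intervals, 4 (20.0%) were at members and none at the other end of the ranking. The list's median difference was 7.02 points, against 0.535 over all coding genes at common intervals. Of the 20, 8 (40.0%) had both CM libraries above both DMEM libraries. STIP1, the cochaperone that links HSP70 and HSP90, stood at 70.9 and 45.2 against 12.9 and 33.4. CCT6A, a chaperonin subunit whose interval is shared with SUMF2, stood at 67.4 and 58.6 against 29.7 and 21.1. BAG2 stood at 52.4 and 43.2 against 36 and 11.4. HSP90AA1, the inducible HSP90, stood at 78.0 and 77.1 against 73.7 and 21.1, where DMEM library 1 was close to CM.

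Amino acid genes had the same median. Of 15 genes of amino acid transport and synthesis 3 (20.0%) were at members, with a list median of 7.02 points and 4 genes with both CM libraries above. SLC38A1, a glutamine transporter, stood at 62.1 and 54.4 against 7.2 and 52.3, so that DMEM library 2 came close to the CM libraries.

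Genes of the ribosome were numerous at common intervals, and their share at members was near that of all genes. Of 63 cytosolic ribosomal protein genes 5 (7.94%) were at members and 2 at the other end of the ranking, with a list median of 0.157 points. RPL18 stood at 93.6 and 93.2 against 9.1 and 57.0, and RPS15 at 87.1 and 91.9 against 12.9 and 79.1. RPS29, at an interval shared with LRR1, stood at 47.6 and 18.0 against 7.2 and 3.8. Of 39 ribosome biogenesis genes 3 (7.69%) were at members, yet 16 (41.0%) had both CM libraries above both DMEM libraries, and the list median was 3.54 points. DKC1, the pseudouridine synthase of small nucleolar ribonucleoproteins, had the highest CM values, 97.9 and 98.3 against 75.3 and 65.5. UTP20, of the small subunit processome, stood at 34.8 and 40.7 against 12.9 and 7.7.

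Translation, splicing and mitochondrial lists were also near the share of all genes. Of 35 translation factors and tRNA synthetases 3 (8.57%) were at members: EIF4B, FARSA (38.5 and 64.8 against 24 and 19.8) and EIF4E, the cap-binding protein (47.6 and 54.4 against 33.1 and 50.6), where the groups overlapped. Of 33 splicing genes 2 were at members, SRSF11 and SRSF10, and 2 were at the other end of the ranking. Of 26 mitochondrial genes (ribosome, protein import, chaperones) 2 were at members, TIMM44 and MRPL12 (67.9 and 73.7 against 20.9 and 45.5). Of 12 respiratory chain genes none was at a member, and 2 were at the other end.

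Growth-signal and cell cycle lists had few genes at common intervals, and their list medians were below the 0.535 points of all coding genes. The medians were -4.36 points for immediate-early genes, -6.0 for ERK and MAP kinase signalling and -3.61 for growth factors, cytokines and receptors. For cell cycle regulators the median was -11.8 points and for DNA replication -0.803. Of 9 immediate-early genes 2 were at members and 2 at the other end of the ranking. FOSL2, a subunit of AP-1, stood at 75.5 and 71.1 against 46.8 and 25.4, and GADD45B, a stress-response gene, at 33.9 and 24.3 against 7.2 and 6.4. Of 12 genes of ERK and MAP kinase signalling SPRED1, an inhibitor of RAS to ERK signalling, was at a member, with 58.0 and 30.4 against 0.7 and 36.2 and overlapping groups. In this list 1 gene was at the other end of the ranking. Of 8 genes of growth factors, cytokines and receptors none was at a member, and 1 was at the other end. Of 10 cell cycle regulators 2 were at members and 3 at the other end of the ranking. These 2 were CDKN2C, an inhibitor of CDK4 and CDK6 whose interval is shared with FAF1 (54.1 and 47.0 against 0.7 and 25.4), and E2F5 (79.1 and 64.8 against 33.1 and 25.4). Of 11 DNA replication genes none was at a member, and none had both CM libraries above both DMEM libraries.

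Of 9 genes of the MYC network 2 were at members and 1 at the other end of the ranking. WDR5, a chromatin protein to which MYC binds, stood at 61.2 and 68.5 against 17.7 and 33.9. MGA, a repressor that pairs with MAX, stood at 40.4 and 34.0 against 24 and 45.5, with overlapping groups. Of 9 lysosome and autophagy genes 2 were at members and 1 at the other end. ATP6V1A, a subunit of the vacuolar proton pump whose interval is shared with NAA50, stood at 46.9 and 49.7 against 4.7 and 9.0. ATG4B, a protease of autophagy, stood at 85.4 and 79.7 against 76.6 and 34.9. The remaining lists gave 1 member gene or none each: DHODH of pyrimidine synthesis (81.3 and 90.6 against 37.6 and 70.6), the proteasome subunit PSMA2 (70.0 and 68.1 against 10.5 and 22.3), CYP51A1 of cholesterol synthesis (44.2 and 54.4 against 1.7 and 34.9), the stress factor ATF5 (51.1 and 67.5 against 29.7 and 53.1, overlapping) and the Polycomb protein RNF2 (39.1 and 51.5 against 24 and 26.5). None of the 13 glycolysis genes, 11 cytoskeleton genes or 2 epithelial and mesenchymal markers at common intervals was at a member. At the other end of the ranking were 2 cytoskeleton genes. The lists of nucleotide synthesis, proteasome, cholesterol synthesis and chromatin genes had 1 gene each there.

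**Figure D5:**
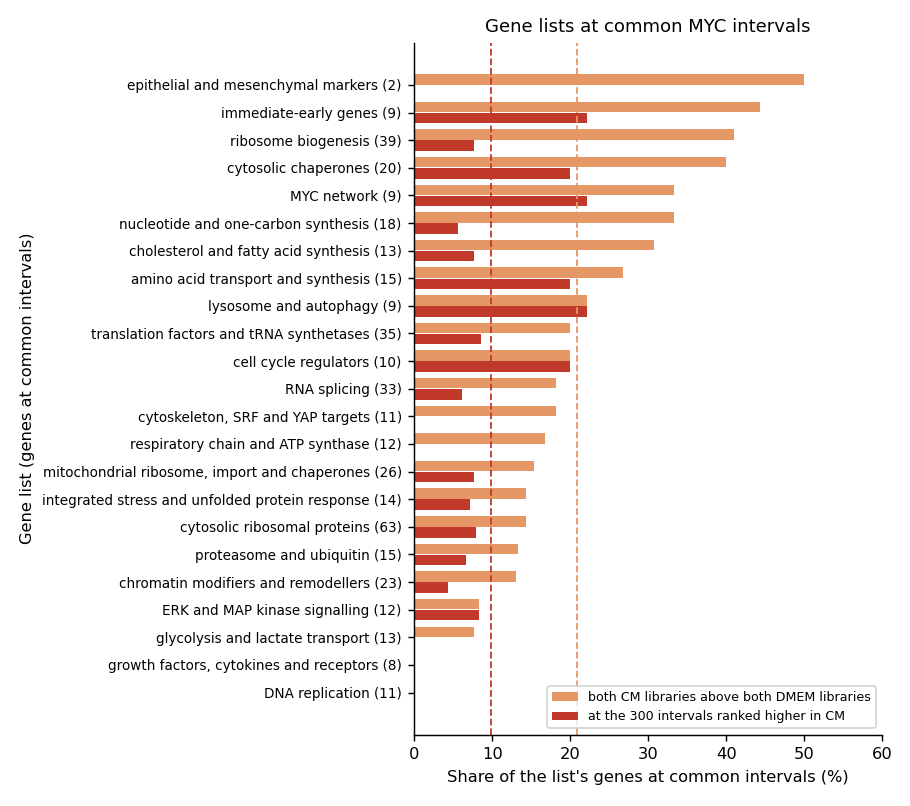
Lists are on the y axis, with their numbers of genes at common intervals, and shares of these genes on the x axis (%). Orange stands for both CM libraries above both DMEM libraries, and red for the 300 intervals ranked higher in CM. Dashed lines mark the shares of all coding genes at common intervals, 20.8% and 9.89%. Ribosome biogenesis (41.0%) and cytosolic chaperones (40.0%) have longer orange bars among the lists with 20 or more genes.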

How the data were processed

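MYC ChIP-seq peak lists of 4 immunoprecipitated libraries were used, 2 for CM and 2 for DMEM, together with the authors' common lists. The submitters' processing notes name GRCh38 and, in no stated role, MACS2 (2.1.1.20160309), Picard (2.9.0), SAMtools (1.3.1), Bowtie2 (2.3.4) and Trim Galore (0.4.3). For their settings, not given in the sources used here, nothing was assumed. The deposited values are a score per peak, called per library, and the authors' score per interval of the common lists. The score was used only for ranks among the 3175 common intervals, with ties at their mean rank. The lists held 15304 and 12797 peaks (CM) and 4657 and 7652 peaks (DMEM). Read depth is unknown. Distinct scores over the common intervals numbered 731, 670, 312 and 479, so DMEM library 1 ranks most coarsely.

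Genes came from RefSeq on GRCh38.p14. Starts were taken from a promoter table for 15843 of 20037 coding genes, and both outermost ends for the other 4194. Of 979 list genes 978 matched by symbol. Overlap meant at least 1 bp. Named genes are those at the 25 intervals with the largest difference in which both CM libraries stood above both DMEM libraries, up to 4 genes per list, the 5 intervals on either side of the threshold, the 5 widest members and groups of 3 or more members within 1 Mb. A few genes that this rule names are not reported here. The members and lists were chosen with earlier results of these data known. No test between groups was made: with 2 against 2 libraries an exact two-sided permutation p cannot go below 0.333. The code for the ranking was tested on simulated data without joined peaks, which checks the code and not the ranking in these libraries. Intervals given with shares are 95% Wilson intervals (scipy 1.17.1). Alternatives covered the number of members, the score, the gene window, the promoter overlap and each library left out.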

Additional observations from a re-analysis of the deposited data

How the results depend on the processing

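The share of members with both CM libraries above both DMEM libraries (80.0%) was 92.0% for 150 members and 63.2% for 600. It was 67.7% with library scores of at least 50 and 29% where a peak had to cover at least 50% of the interval, which 415 intervals met, 21% of them with this order. Under this overlap 300 of the 415 were chosen. They held all 87 intervals with this order, so the share could not be higher. With alternatives chosen after seeing the data it was 86.3% for the mean of the highest peak of each library and 88.7% for the mean percentile of the single libraries. With 1 library left out it was 93.0% to 100% over the remaining 3, where 31.4% to 38% of all intervals met the condition. There the 300 were chosen anew by the percentile of the remaining library of that group. These shares therefore follow largely from the choice and support nothing by themselves. The members themselves moved more. Of the 300, 146 were chosen again without DMEM library 2, 192 without DMEM library 1, and 208 and 203 without CM library 1 or 2. With scores of at least 50, 129 were chosen again, out of 2225 intervals that met this condition. Under the overlap of at least 50%, 17 were chosen again, out of 415. Members that did not meet these conditions could not be chosen, so the last 2 counts do not show movement alone. The share at a coding gene start was 80.3% with both outermost ends of every coding gene. The median width was 1940 bp for 150 members, 2033 bp with scores of at least 50, 1775 bp for intervals of 1 peak per library, 835.5 bp for the DMEM interval, and 1806 to 1944 bp with 1 library left out. The share of promoter windows with CACGTG was 12.1% for 150 members and 12.2% by the mean percentile. The other 57 values stayed within the interval of the reported value. No paired analysis was possible because none of the results comes from a test. Differences between libraries of the same number are in the report as descriptions. Without read counts, a difference in immunoprecipitation yield or depth cannot be told apart from one in binding.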

Other observations

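Among the 39 members away from coding gene starts, 35 had both CM libraries above both DMEM libraries, as had 80.0% of all members and 20.1% of all common intervals. The members were chosen from these libraries, so the count is a description. The following were picked after their values were seen. An interval on chromosome 3 from 169764068 to 169765725 lies at TERC, the RNA template of telomerase. Its percentiles are given here as CM libraries 1 and 2 against DMEM libraries 1 and 2. TERC stood at 27.6 and 36.7 against 12.9 and 3.8. On chromosome 8 the interval from 143280590 to 143282383, at the long noncoding RNA gene MINCR, stood at 28.9 and 30.4 against 5.5 and 10.8. An interval on chromosome 20 from 49978411 to 49980233 lies 2747 bp from SNAI1, which encodes a transcription factor of epithelial-mesenchymal transition, and stood at 79.1 and 87.2 against 54.7 and 63.9. HMGA1, the gene of a chromatin architectural protein, stood at 46.9 and 59.0 against 38.9 and 21.1. In each of these 4 intervals both CM libraries were above both DMEM libraries.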
